A study of Mus musculus with 6 samples.

Results

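The vascular basement membrane genes examined here were *Hspg2*, which encodes perlecan, the collagen IV genes *Col4a1* and *Col4a2*, the laminin genes *Lama4*, *Lama5*, *Lamb1* and *Lamc1*, the nidogen genes *Nid1* and *Nid2*, and the agrin gene *Agrn*. A differentially methylated region (DMR) was assigned to a gene when its midpoint fell inside the gene as curated RefSeq transcripts of mm10 delimit it, or within 10 kb on either side. This gave 45 of the 18333 DMRs, 22 at *Hspg2* and 23 at the other 9 genes. Endothelial cells (EC) were sorted from lungs of C57BL/6N mice as CD31+ CD34+ cells without PTPRC, LYVE1, LY76 or PDPN on their surface, from 3 samples of infant mice aged 8 to 10 days and 3 samples of young adult mice aged 8 to 12 weeks. The mice carried no transgene or treatment that the labels name, and the methods describe them as female. The methylome was measured by T-WGBS, a form of whole genome bisulfite sequencing in which a transposase fragments the DNA and adds the adaptors, and bisulfite turns unmethylated cytosines into uracil. The list gives 1 mean methylation level per DMR and age group. Values of single samples were not used here, so that no difference could be set against the spread between mice, no test between the ages was made, and every value below is a description. Each DMR had been listed because it passed a t-test per CpG on these same samples, and the coverage behind a single mean is unknown. The identity of the sorted cells cannot be checked from a list of DMRs.

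The basement membrane is a thin sheet of extracellular matrix on which EC rest. Laminins assemble on the cell surface through integrins and dystroglycan, collagen IV forms a cross-linked network next to them, and nidogens, perlecan and agrin connect these layers. Perlecan and agrin carry heparan sulfate chains that bind growth factors such as FGF and VEGF, and a fragment released from the end of perlecan, endorepellin, acts on vessel growth. In the lung, the basement membranes of capillaries and of the alveolar epithelium are fused over the thin side of the gas exchange barrier. Methylation of CpGs is copied at DNA replication and set anew by DNA methyltransferases, and CpGs of active enhancers, many of which lie in introns, are typically low in methylation.

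The reference sequences of 8 DMRs are shown first, to show the DNA behind the results below: the largest gain and the largest loss of the set, gains that started from low levels, and examples from *Lama4*, *Col4a1* and *Nid1*. They are not the 8 largest differences. The largest gain at *Hspg2*, the largest gain and loss at the other genes and the DMR within 1 kb of the *Hspg2* start were chosen by rule, and the other 4 after their values had been seen. All are given 5′ to 3′ on the plus strand of mm10 (*Col4a1* is transcribed from the minus strand), with the CpGs in capitals, and a DMR of more than 300 bases is cut to 300.
Hspg2 intron 1, largest gain (chr4:137470562-137470676): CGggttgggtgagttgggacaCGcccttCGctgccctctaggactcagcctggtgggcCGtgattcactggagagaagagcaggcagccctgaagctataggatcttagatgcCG
Hspg2 intron 1, gain nearest to the start (chr4:137469478-137469777): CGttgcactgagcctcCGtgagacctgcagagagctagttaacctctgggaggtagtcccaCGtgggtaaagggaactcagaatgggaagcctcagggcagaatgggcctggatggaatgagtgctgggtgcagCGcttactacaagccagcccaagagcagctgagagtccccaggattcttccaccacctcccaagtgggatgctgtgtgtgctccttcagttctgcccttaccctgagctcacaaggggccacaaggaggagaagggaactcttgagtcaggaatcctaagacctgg
Hspg2 intron 1, lowest infant level (chr4:137478096-137478250): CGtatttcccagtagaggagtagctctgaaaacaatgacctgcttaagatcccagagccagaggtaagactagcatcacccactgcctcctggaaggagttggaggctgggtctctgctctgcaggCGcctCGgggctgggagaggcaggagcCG
Lama4 intron 1, largest gain (chr10:38966850-38967149): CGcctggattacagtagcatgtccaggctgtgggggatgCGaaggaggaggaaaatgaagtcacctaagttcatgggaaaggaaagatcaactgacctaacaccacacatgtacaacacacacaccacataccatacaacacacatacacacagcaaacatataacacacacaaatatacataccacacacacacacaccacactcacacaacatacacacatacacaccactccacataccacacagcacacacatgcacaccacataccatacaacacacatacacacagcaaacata
Lama4 intron 1, lowest infant level (chr10:38968183-38968462): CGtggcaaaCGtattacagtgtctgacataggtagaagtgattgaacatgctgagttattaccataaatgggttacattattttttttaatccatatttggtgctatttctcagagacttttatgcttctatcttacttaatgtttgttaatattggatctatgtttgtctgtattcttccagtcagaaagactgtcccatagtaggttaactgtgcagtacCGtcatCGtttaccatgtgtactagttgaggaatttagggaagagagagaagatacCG
Col4a2 intron 3, largest loss (chr8:11344498-11344568): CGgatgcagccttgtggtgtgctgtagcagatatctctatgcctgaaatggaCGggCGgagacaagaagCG
Col4a1 intron 2, most CpGs among the losses of the set (chr8:11249520-11249819): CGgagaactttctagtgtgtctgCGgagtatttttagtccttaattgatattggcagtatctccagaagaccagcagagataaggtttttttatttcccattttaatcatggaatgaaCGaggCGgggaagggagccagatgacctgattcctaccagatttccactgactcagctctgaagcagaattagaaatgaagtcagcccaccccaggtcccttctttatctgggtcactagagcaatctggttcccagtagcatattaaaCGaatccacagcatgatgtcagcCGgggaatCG
Nid1 intron 1, the listed loss (chr13:13443798-13444030): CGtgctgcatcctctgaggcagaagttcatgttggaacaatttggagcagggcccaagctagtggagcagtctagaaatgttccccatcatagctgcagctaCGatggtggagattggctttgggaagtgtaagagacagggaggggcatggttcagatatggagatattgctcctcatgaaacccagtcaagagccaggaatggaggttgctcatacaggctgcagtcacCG
The first of these sequences holds 5 CpGs in 115 bases, and 58.5% G and C in its 200 bp window, against a median of 48.5% over all gain DMRs. The *Lama4* region with the largest gain reads as a CA-rich repeat over most of its length and has 2 CpGs in the 300 bases printed. The 4 CpGs of the *Col4a2* sequence stand within 71 bases. None of the 45 DMRs had a 200 bp window with at least 50% G and C and an observed to expected CpG ratio over 0.6, the usual criteria of a CpG island, which 749 of all DMRs (4.09%) met.

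*Hspg2* gained methylation from infant to young adult EC at each of its 22 DMRs, and no DMR there lost methylation. Over all 18333 DMRs of the list, intergenic ones included, 54.1% gained and 45.9% lost methylation. The other 9 genes together had 12 gain and 11 loss DMRs, a loss share of 47.8%. Most DMRs of the set were intronic (86.4% at *Hspg2*, 91.3% at the other genes), and among all intronic DMRs of the list 59.2% were losses and 40.8% gains. Of all 45 DMRs, 24.4% lost methylation (exact 95% binomial interval 12.9 to 39.5, which covers the number of DMRs only and treats neighbours as independent).

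A DMR was found at 8 of the 10 genes. At *Hspg2*, *Lama4* and *Lamb1* all DMRs were gains, at *Col4a1* and *Nid1* all were losses, and *Col4a2*, *Lama5* and *Lamc1* had both. For the gains at *Col4a2* and the losses at *Lamc1*, the nearest promoter in the authors' list is not that of the gene itself. The mixed direction at *Col4a2* and *Lamc1* therefore rests on the assignment by gene body. *Nid2* and *Agrn* had none. Among all 26089 genes, 26.6% had a DMR in the body or within 10 kb, and among the 7318 genes at least as long as *Agrn*, the shortest gene of the set at 32.2 kb, 45.8% had one. The other genes of the set are longer than *Agrn*. Of the 1196 genes within 20% of the length of *Hspg2*, 628 had a DMR. Among the 7318 long genes, 32.9% had a gain DMR, against 6 of the 10 here, and 22.4% a loss DMR, against 5 of the 10. With 10 genes, these counts are given as a description.

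**Figure D1:**
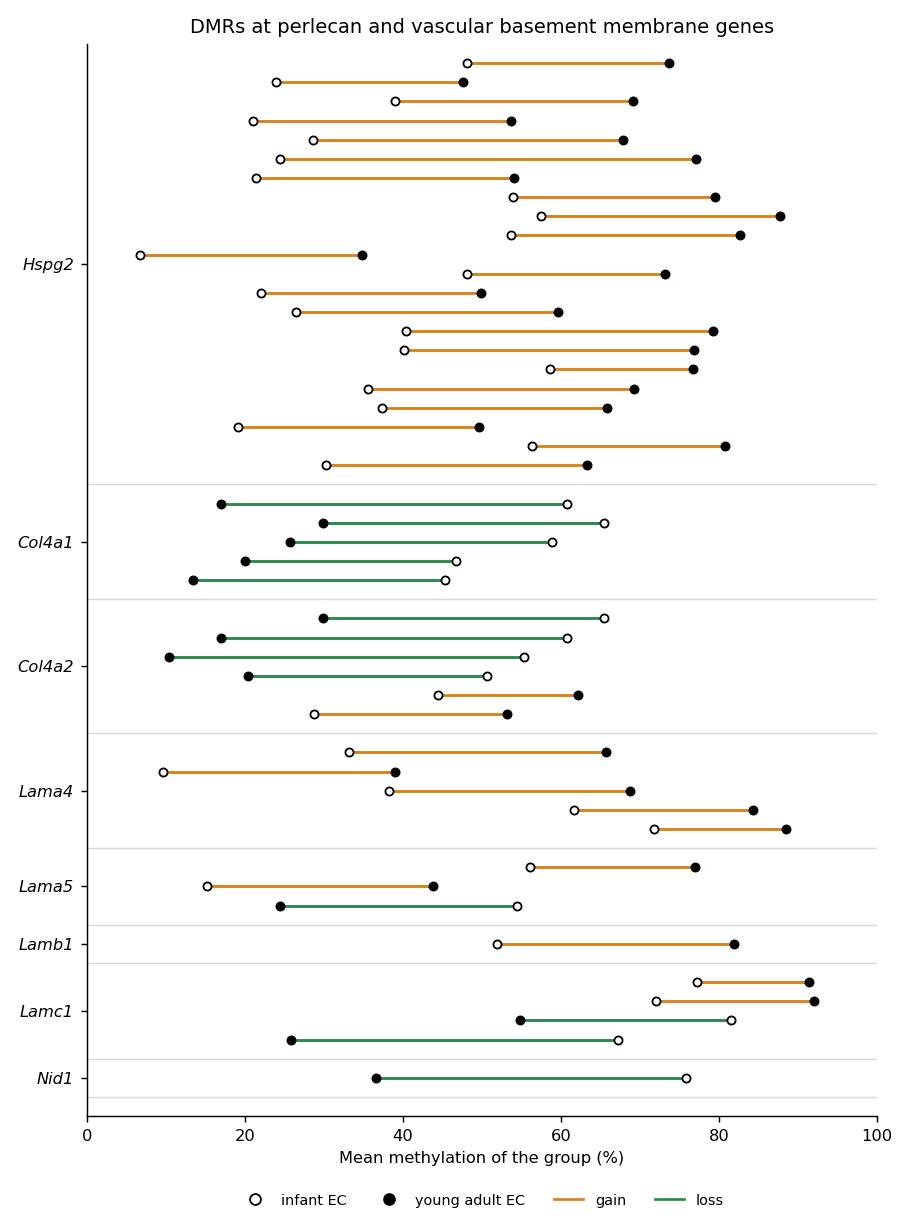
Mean methylation (%) of infant EC (open circles) and young adult EC (filled circles) at each DMR of the 8 genes that have one, ordered within a gene from the start to the end in the direction of transcription. Orange lines join gains and green lines losses. All 22 *Hspg2* lines are orange. The 2 DMRs that lie within reach of both collagen IV genes are drawn under each.

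*Hspg2* lies on the plus strand at chr4:137468803-137570630, is 101.8 kb long and has 97 exons. Its exon 1 is followed by an intron 1 of 32134 bp, which makes up 31.6% of the gene body. Of the 22 DMRs, 18 had their midpoint in intron 1, 1 in intron 6 and 3 in the 10 kb upstream of the gene. No DMR lay in an exon or at the promoter, taken as 1 kb upstream to 100 bp downstream of the start. The DMRs spanned 48.5 kb, from -7.65 to 40.87 kb relative to the start. The remaining 61.0 kb of the gene, which has 1219 CpGs and nearly all of the exons, had no DMR.

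The *Hspg2* DMRs stood in 9 groups when those at most 1 kb apart were counted together. The group farthest upstream had 3 DMRs, with infant levels of at most 48.1% and gains of 23.7 to 30.1 percentage points. The first group inside the gene began 0.68 kb after the start and held 5 DMRs with 30 CpGs. It included the largest gain of the gene, at chr4:137470562-137470676, where the mean rose from 24.5% to 77.1%, by 52.7 percentage points. By size this was number 3 among the 9911 gain DMRs of the whole list. Its neighbour 32 bp upstream rose from 28.6% to 67.9%, and the next DMR downstream, the longest at 599 bp with 11 CpGs, from 21.4% to 54.1%.

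Farther into intron 1, levels and gains varied between neighbours. Near 5 kb from the start, a pair of DMRs had infant levels of 57.5% and 53.7% and young adult levels of 87.8% and 82.7%, of which the first is the highest at the gene. The DMR at 9.37 kb, chr4:137478096-137478250, was the lowest in both ages, with 6.69% in infant EC and 34.9% in young adult EC. A group of 5 DMRs between 16.75 and 19.56 kb rose by 25.1 to 38.8 percentage points. The smallest gain, from 58.6% to 76.7%, followed at 21.2 kb. The last DMR of intron 1, at 30.2 kb, went from 56.3% to 80.8%, and the single one in intron 6, at 40.8 kb, from 30.3% to 63.3%. Infant levels showed little relation to the distance from the start over the 19 DMRs in the gene body (Pearson r = 0.09). These points share a chromosome stretch and the same 6 samples.

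**Figure D2:**
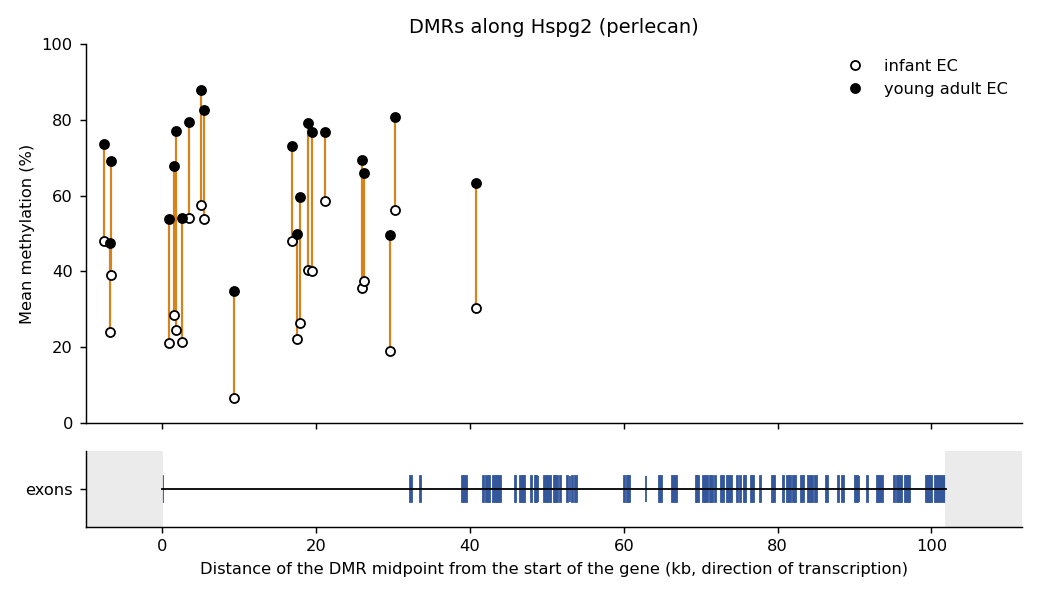
Mean methylation (%, upper panel) of infant EC (open circles) and young adult EC (filled circles) at the 22 DMRs against the distance of their midpoint from the *Hspg2* start in kb, with the exons as blue boxes in the lower panel and the 10 kb flanks in grey. The DMRs end at 40.8 kb, and the exon-rich rest of the gene has none.

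On the level scale, *Hspg2* DMRs went from a median of 36.5% in infant EC (range 6.69% to 58.6%) to 69.2% in young adult EC (34.9% to 87.8%). All gain DMRs of the list had medians of 54.8% and 78.1%. An infant level of at least 60% was found in 43.8% of all gain DMRs and in 0 of the 22 at *Hspg2*. The mean moved from under 50% to over 50% at 13 of the 22, compared with 27.3% of all gain DMRs. The ratio of the young adult to the infant level had a median of 1.95 and reached 5.22.

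On the scale of differences, the *Hspg2* gains had a median of 30.2 percentage points (range 18.2 to 52.7), against 20.4 over all gain DMRs. Over all gain DMRs, the gain was smaller where the infant level was higher (Pearson r = -0.59), and at *Hspg2* r was -0.38. The larger gains and the lower infant levels of *Hspg2* are thus not independent traits. Gain DMRs of like infant level were not compared. A gain of at least 30 percentage points was found at 12 of the 22 DMRs (54.5%) and in 13.0% of all gain DMRs. At least 5 CpGs were found in 36.4% of *Hspg2* DMRs and in 7.41% of all gain DMRs. Infant and young adult levels of the 22 DMRs went together (Pearson r = 0.88), as they did over all gain DMRs (r = 0.96). A positive r follows in large part from the selection, since every gain DMR was listed with a young adult mean above its infant mean. The points of each correlation come from the same libraries.

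**Figure D3:**
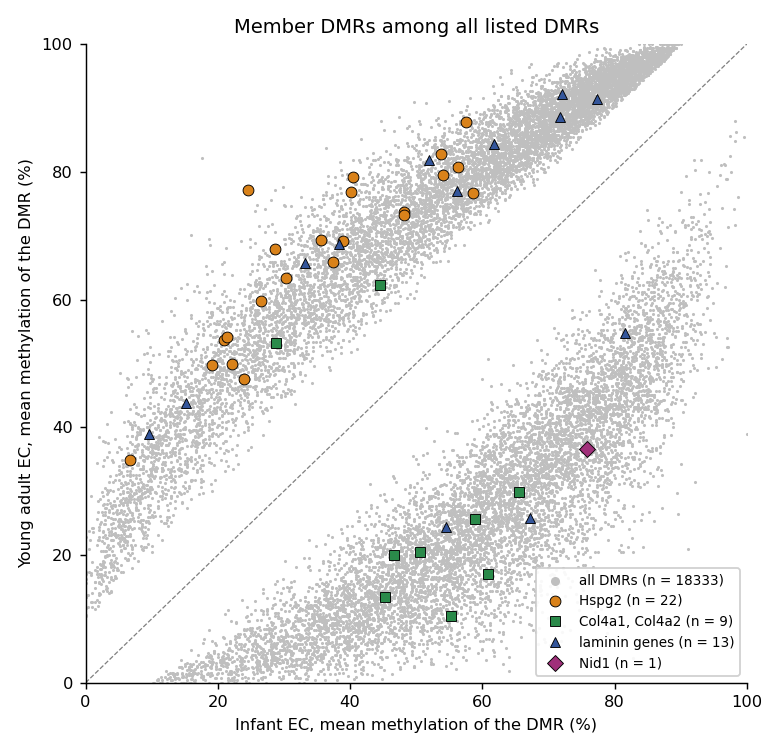
Mean methylation (%) of each DMR in infant EC (x axis) and young adult EC (y axis), in grey for all 18333 DMRs and in colour for *Hspg2*, the collagen IV genes, the laminin genes and *Nid1*; points above the dashed line of equal levels are gains. The *Hspg2* points begin at 58.6% or less on the x axis, while the grey cloud of gains is densest to the right of them.

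By its number of gain DMRs, *Hspg2* shared place 2 among all genes with *Magi1*, which had 22 gains and 1 loss on a body of 608.5 kb, behind *Hoxb3* with 25 gains and 1 loss. Inside gene bodies alone, *Hspg2* had 19 gains and *Magi1* 22. Among genes without any loss DMR, *Hspg2* had the most gains, followed by *Arhgap28* and *Hoxb2* with 15 each and *Tead1* with 14. These places depended on how neighbouring DMRs are counted: after merging of neighbours with the same sign that lay within 500 bp of each other, *Hspg2* had 13 gain regions and 7 genes had more, each of them with at least 1 loss region. It was then level with *Arhgap28* and *Frmd4a*, so that it no longer led alone among genes without a loss. The DMRs of *Hspg2* held 94 of the 2271 CpGs of its body and flanks, or 4.14%, compared with a median of 0.474% over the 3351 long genes with a DMR, and *Hspg2* was number 99 among the 7318 long genes by this share.

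Of 1196 genes within 20% of the length of *Hspg2*, 11 had at least as many DMRs, and the median was 1. The 5 nearest to it in number were *Arhgap31* (23 losses), *Clic5* (21 losses), *Myzap* (23 losses), *Bmpr2* (20 losses) and *Ppp1r16b* (22 losses and 3 gains). In number of DMRs *Hspg2* thus stood beside genes whose DMRs were nearly all losses. Around the gene, the next DMR upstream lay 11.3 kb from the first *Hspg2* DMR and also gained methylation, from 76.0% to 94.5%. The next DMR downstream lay 240.1 kb from the last and fell by 28.8 percentage points.

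*Col4a1* and *Col4a2* encode the chains of the collagen IV trimer found in nearly all basement membranes, and they start head to head from a shared promoter on chromosome 8. *Col4a1* (chr8:11198423-11312826, minus strand, 114.4 kb) had 5 loss DMRs and no gain. *Col4a2* (chr8:11312805-11449287, plus strand, 136.5 kb) had 4 losses and 2 gains. A pair of the losses lay within 10 kb of both genes and is counted at each, so that the locus had 9 DMRs, 7 of them losses. All 9 were intronic, and none lay at the shared promoter.

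The 7 losses at the collagen IV locus went from a median of 55.3% in infant EC (45.3% to 65.5%) to young adult levels of 10.4% to 29.9%, with a median difference of -33.2 percentage points. That of all loss DMRs was -32.5. The largest loss of the whole gene set was in intron 3 of *Col4a2*, at chr8:11344498-11344568, from 55.3% to 10.4%, or -44.9 percentage points. The DMR in the same intron at 4.96 kb from the *Col4a2* start, which is also the upstream flank of *Col4a1*, went from 60.8% to 17.0%. Inside *Col4a1*, the mean fell from 65.5% to 29.9% and from 58.9% to 25.7% at 2 DMRs of intron 1, and by 26.7 percentage points from 46.7% at the third. The DMR of 8 CpGs in intron 2, the most CpGs of any loss in the set, went from 45.3% to 13.5%. All young adult means at these losses were under 30%.

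Both gains at *Col4a2* lay within about 3 kb downstream of a loss. In intron 4, a loss at 84.9 kb went from 50.6% to 20.4%, and a gain at 85.8 kb from 44.5% to 62.2%. A gain in intron 6 at 87.9 kb went from 28.8% to 53.2%. The gain in intron 6 was the larger of the pair, with 24.3 percentage points, and both were below the *Hspg2* median.

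The laminin genes had 13 DMRs, 10 gains and 3 losses. *Lama4* and *Lama5* encode the alpha chains of the laminins that EC lay down, and *Lamb1* and *Lamc1* the beta and gamma chains that join them. *Lama4* (chr10:38965515-39110188, plus strand, 144.7 kb) had 5 gains, all in intron 1 and within 26.8 kb of the start, and no loss. Its largest gain, at chr10:38966850-38967181 and 1.5 kb from the start, went from 33.2% to 65.7%. The next, at 2.81 kb, started at 9.59% and reached 39.0%. The other 3 went from 38.3% to 68.7%, from 61.7% to 84.3% and from 71.8% to 88.5%. The 3 DMRs nearest to the start thus had lower infant levels and larger gains than the 2 farther along.

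*Lama5* (chr2:180176373-180225859, minus strand, 49.5 kb) had the only DMR of the set with its midpoint in an exon. This loss lay at exon 2, at chr2:180221299-180221435, and went from 54.5% to 24.4%. A gain in intron 1, from 15.2% to 43.8%, lay about 1 kb closer to the start, at 3.47 kb. A further gain upstream of the gene, at -4.79 kb, went from 56.1% to 77.0%. At *Lama5*, neighbouring DMRs therefore moved in opposite directions.

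*Lamb1* (chr12:31265293-31329644, plus strand, 64.4 kb) had 1 DMR, a gain in intron 2 from 51.9% to 81.9%. *Lamc1* (chr1:153218922-153332786, minus strand, 113.9 kb) had 2 gains in intron 1, from 77.3% to 91.4% and from 72.0% to 92.1%, and 2 losses farther along. The loss in intron 2 went from 81.6% to 54.8% and that in intron 27 from 67.2% to 25.8%. The gains of *Lamc1* started from the highest infant levels of any gain in the set, and the smallest gain of the set, 14.1 percentage points, was one of them.

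**Figure D4:**
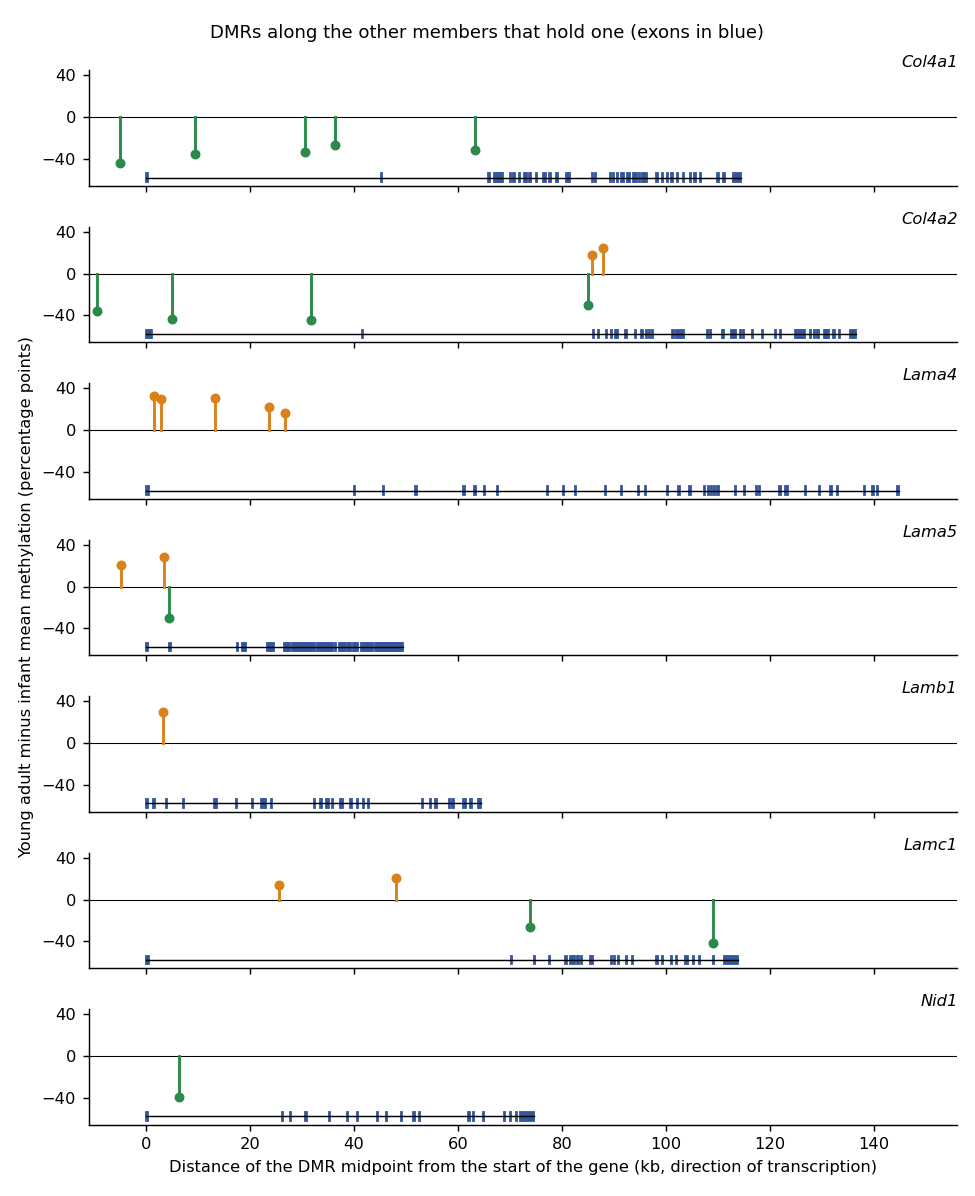
Difference of the group means (young adult minus infant, percentage points) at each DMR of 7 genes, against the distance of its midpoint from the start of the gene in kb, with gains in orange, losses in green and exons in blue. The 5 *Lama4* gains stand before 26.8 kb, and the losses of *Col4a1* extend to 63.2 kb.

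The nidogens bind laminin and collagen IV and so link their networks. *Nid1* (chr13:13437602-13512275, plus strand, 74.7 kb) had 1 DMR, a loss in intron 1 at chr13:13443798-13444030, from 75.8% to 36.6%. *Nid2* (chr14:19751257-19811787) had no DMR, although its body and flanks have 1060 CpGs against 877 at *Nid1*. *Agrn* (chr4:156165290-156197488), which encodes another heparan sulfate proteoglycan of the basement membrane, had no DMR either, with 1066 CpGs. A gene without a DMR may have CpGs that did not reach the coverage, the number of neighbouring CpGs or the difference that the list required, so that its methylation is not known from these data.

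Across the set, 40 of the 45 DMRs (88.9%) were intronic, compared with 58.1% of all DMRs. Among gains, 88.2% were intronic here and 43.8% in the list as a whole, where 45.5% of gains were intergenic. Among losses, 10 of 11 were intronic, against 74.9%. Intron 1 of the gene itself held 30 of the 45. Because the assignment takes in the gene body and only 10 kb to either side, a high share in genes follows in part from the rule.

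Short motifs of factors active in EC were searched on both strands of the 200 bp window around each DMR. The 160 windows of the same length that tile *Hspg2* intron 1 are given beside them. These tiles include the sequence of the 18 DMRs of that intron, while the windows of the upstream and intron 6 DMRs lie outside it. GGAA, the core of ETS sites, was in 20 of the 22 *Hspg2* windows (90.9%), in 90.3% of all gain windows and in 84.4% of the tiles. CACCC, a core of KLF sites, was in 17 of the 22 (77.3%), compared with 36.1% of all gain windows and 54.4% of the tiles. The windows also differed in base composition, with a median of 56.2% G and C at *Hspg2*, 54.0% in the tiles and 48.5% over all gain DMRs, and the part of this in the count was not tested. GGAATG, bound by TEAD factors and overlapping the ETS core in its letters, was in 5 of the 22 (22.7%), against 12.1% of all gain windows and 12.5% of the tiles. The AP-1 motif TGANTCA was in 3 windows, which is 13.6% against 6.25% of all gain windows and 8.12% of the tiles. A motif of GATA factors, spelled AGATAA, was in 2 windows, or 9.09% against 9.96%. The forkhead motif GTAAACA was found in 1 window (4.55%, against 3.04% of all gain windows and 0.625% of the tiles). The palindrome GTCTAGAC, a SMAD motif, was in 0 of the 22, in 0.161% of all gain windows and in 0 of the tiles. Of the 11 loss windows of the set, 6 had CACCC (54.5%, against 41.1% of all loss windows), 3 had GGAATG (27.3%, against 11.2%) and 10 had GGAA (90.9%, against 90.4%). A match names letters in a window and not a bound site.

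Further genes of the basement membrane were described by lists, whose counts stand beside 26.6% of all genes and 45.8% of the long genes with a DMR, and 45.9% losses among all DMRs. Among 26 other structural components, 17 had a DMR, with 22 gains and 6 losses in all (21.4% losses) and a median difference of 18.2 percentage points, beside 12.6 over all DMRs. No gene of this list had losses without a gain. *Col15a1*, which encodes a collagen at the outer face of the basement membrane, had the most gains, 4, at median levels of 55.6% and 79.1%. *Ntn4*, which encodes a netrin that binds laminin, had the most losses, 4, beside 1 gain. Of the 7 laminin genes outside the set, 4 had 1 gain each and none had a loss, and *Lama2* went from 74.8% to 90.0%.

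Among 16 receptor genes for basement membrane components, 10 had a DMR, beside 26.6% of all genes and 45.8% of the long ones. Of these 10 genes, 3 had only losses, 4 only gains and 3 both. Their DMRs were 34 losses (77.3%, beside 45.9% of all DMRs) and 10 gains, with a median difference of -27.2 percentage points, and most of the losses came from a pair of genes. *Itga3*, the alpha chain of a laminin-binding integrin, had 14 losses, with a median that went from 72.0% to 33.7%, and *Itga1*, that of a collagen-binding integrin, had 11 losses and 1 gain. *Itga6*, the alpha chain of a further laminin receptor, had 3 gains and no loss. Dystroglycan (*Dag1*) and the common integrin beta chain (*Itgb1*), named here as core receptors after their values were seen, had no DMR.

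Among 25 genes for the assembly and cross-linking of the network and for heparan sulfate synthesis, 16 had a DMR, beside 26.6% of all genes and 45.8% of the long ones. They had 20 losses and 19 gains, and this loss share of 51.3% is near the 45.9% of all DMRs. Of the 16 genes, 7 had only losses, 8 only gains and 1 both. *Pxdn*, whose product peroxidasin cross-links collagen IV, had 9 losses, from a median of 63.4% to 32.6%. *Ext1*, a polymerase of the heparan sulfate chains that perlecan carries, had 10 gains and no loss, from a median of 26.0% to 46.8%. Among 16 genes of basement membrane remodelling, 8 had a DMR, beside 26.6% of all genes and 45.8% of the long ones, with 17 losses and 4 gains. Several of the 16, such as *Timp1* and *Plau*, are shorter than the 32.2 kb that defines the long genes. By gene, 5 had only losses and 3 only gains. *Timp2*, an inhibitor of matrix metalloproteinases, had 10 of the 17 losses, from a median of 72.7% to 33.8%. Its relative *Timp3*, which is bound to the matrix, had 2 gains.

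**Figure D5:**
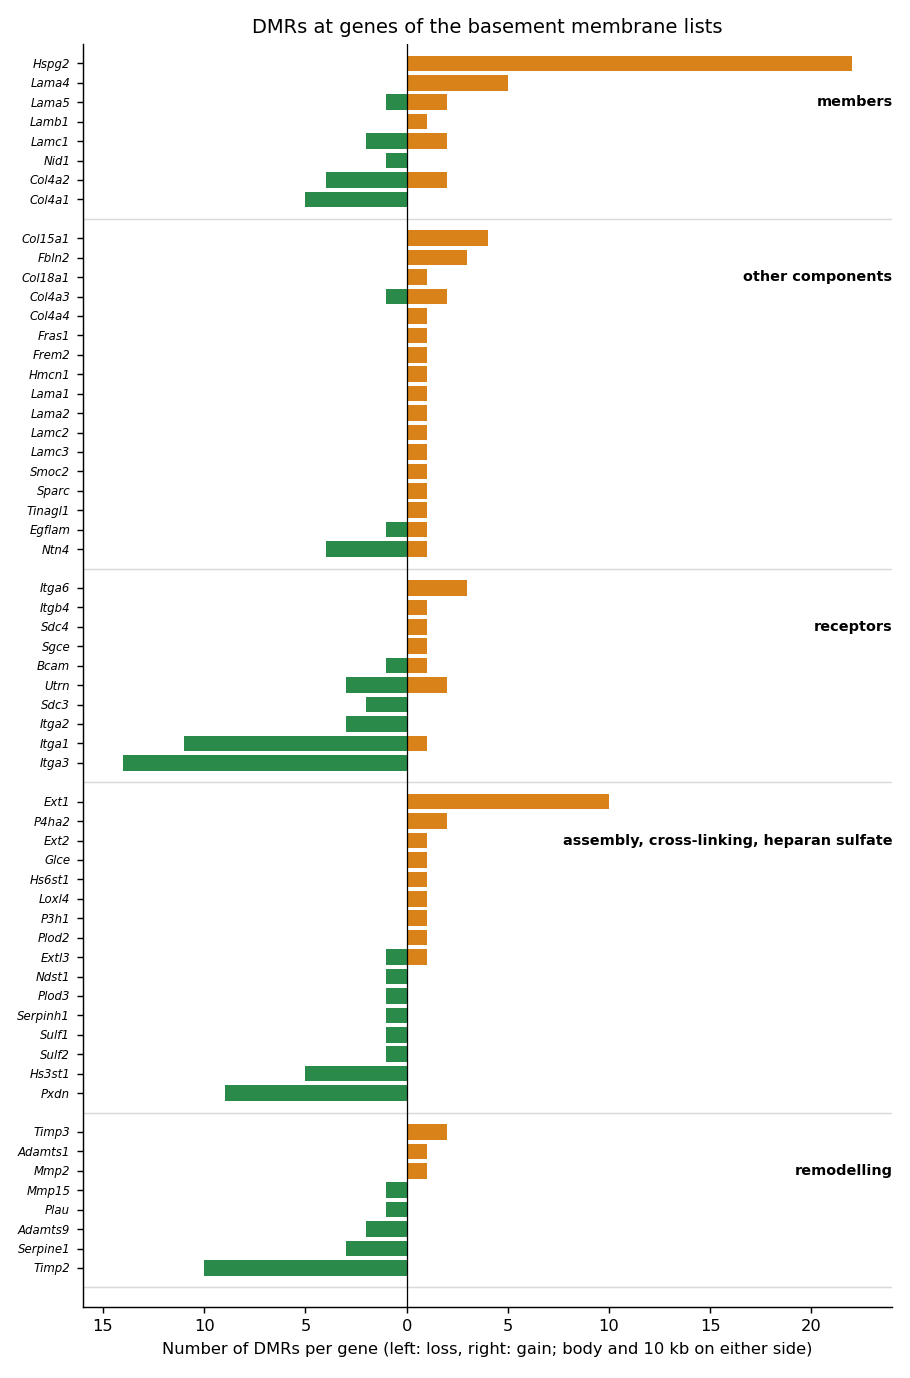
Number of gain DMRs (orange, to the right) and loss DMRs (green, to the left) in the body and 10 kb flanks of each gene of the 5 lists that has a DMR. *Hspg2* has the longest bar to the right with 22 gains, and *Itga3* the longest to the left with 14 losses.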

How the data were processed

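T-WGBS DMRs of sorted lung EC from 3 infant and 3 young adult samples were analysed. The authors trimmed adaptors (SeqPrep), aligned reads with BWA 0.6.1 to bisulfite-converted mm10, removed duplicates (Picard) and called DMRs with bsseq in R 3.2.2 on unsmoothed data. A CpG needed coverage of 8 in at least 2 of 3 samples, and a DMR at least 3 consecutive CpGs at 0.05 (t-test per CpG) and a 10% difference. The deposited group means are fractions, multiplied here to percent. Coverage per DMR is unknown.

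Positions run from the first C to the last G (1-based). In all DMRs both ends fell on a reference CpG. DMRs were assigned by midpoint to 26089 genes (curated RefSeq, 45657 transcripts), with flanks of 10 kb, and located in the order promoter, transcript end, exon, intron, intergenic (Python 3.11.15, pandas 2.3.3). Assignment and counting were tested on simulated data. The members, the gene lists and the rules were chosen with earlier results of these data known. Named are all 10 genes, the gene with the most losses and with the most gains of each list, and the 5 genes nearest to *Hspg2* in DMR number among those of like length. Genes named in the comparison of gain counts, and *Lama2*, *Itga1*, *Dag1* and *Itgb1*, were named after their values were seen. Alternatives varied the flank, thresholds, merging, transcript and assignment.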

Additional observations from a re-analysis of the deposited data

How the results depend on the processing

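No paired analysis was possible because the list holds group means and no values of single samples, and for the same reason the tests over samples and the values without each replicate were not run. Of 59 alternative values, 53 stayed within 1.5 times the main count or within the 95% interval of the main share or median. The other 6 did not. Some values could not move: *Nid2* and *Agrn* have no DMR, so leaving out either returned the main loss share of 24.4%. The interval of the loss median, -43.8 to -26.7 percentage points, spans nearly the full range of the 11 losses, -44.9 to -26.7. The loss median could therefore hardly leave it. A threshold of 20 percentage points removed none of these losses. The count of 53 is thus no measure of robustness for these values. Taking the longest curated transcript alone had little to change, since most of the genes have a single curated transcript. With at least 5 CpGs per DMR, 15 DMRs remained at 5 genes, 8 of them at *Hspg2*. Merging of neighbours with the same sign within 500 bp of each other left 13 at *Hspg2*. Without flanks the intronic share rose to 97.6%. Without *Hspg2* the loss share was 47.8%, against 19.0% to 27.5% without any other gene of the set. Flanks of 50 kb gave 52 DMRs at 10 genes, and the nearest promoter of the authors' list 41 DMRs at 9 genes. The median of the loss DMRs lay between -34.4 and -32.5 percentage points under every alternative tried. The unknown coverage of each DMR, the unknown spread between mice and the selection of DMRs on the same samples limit how far a single value can be read.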
